A study of Mus musculus with 12 samples.

Results

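The 10 genes described here, Prox1, C1ql2, Dsp, Tdo2, Lct, Stxbp6, Pitpnm2, Pdzd2, Rfx3 and Maml2, are used as markers of mature granule cells of the dentate gyrus. They were taken as a list of symbols, and each matched 1 of the 46078 gene IDs in the table. RNA from the hippocampus was sequenced in 12 libraries from C57BL/6 mice at postnatal day 25, in 4 groups of 3. These were mutant males, wild-type males, mutant females and wild-type females. The mutants were heterozygous for the Chd8 allele that the labels call Asn2373LysfsX2, a frameshift, and so kept 1 wild-type copy of this chromatin remodelling gene. The labels leave open whether each library is its own animal, and p-values are therefore about the spread among libraries, some of which may be technical.

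Granule cells are the principal excitatory neurons of the dentate gyrus, the entry station of the hippocampus for signals from the entorhinal cortex. Their axons, the mossy fibres, contact pyramidal cells of field CA3. They are also a population that is still added to after birth, when stem cells at the inner edge of the layer give rise to new granule cells. Prox1, a homeobox transcription factor, sets and keeps the identity of these cells.

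Differences between the groups in other cell types stand beside everything that follows. The libraries held 23721482 to 24654408 recovered reads in mutants and 26912998 to 33327314 in wild type, so depth and genotype cannot be told apart. Chd8 itself lay lower in all 6 mutant libraries (2383 to 2513 normalized counts) than in all 6 wild-type libraries (2751 to 2994). Averaged over the sexes its log2 fold change was -0.22 ± 0.03 (SE; limma adjusted p = 0.0289). The call was lost with upper-quartile scaling, with no filter, with the replicate number as a block, and in 10 of the 12 fits that left out 1 library, where its log2 fold change ran from -0.24 to -0.21. The 10 markers of choroid plexus, the secretory tissue in the ventricle beside the hippocampus, summed to 926 to 158327 normalized counts in mutants and 793 to 173083 in wild type. None of these 10 markers was at 0 in any library. The 3 libraries with the lowest sums were mutant male 2 (926), mutant male 3 (976) and wild-type female 1 (793), and the next lowest sum was 48042.5. Oligodendrocyte markers lay lower in mutants in 10 of 10 genes (median log2 fold change -0.23), and each had an unadjusted limma p under 0.05 while 0 passed adjustment. In such bulk RNA, fewer cells of a type and less RNA per cell cannot be told apart.

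All 10 dentate genes were well measured in every library, from 205 reads (Tdo2) to 10854 reads (Pitpnm2). Divided by exon length, the normalized counts per kilobase of exon ranked C1ql2 first at 759.5 ± 74.6 (SD, n = 12 here and for the following levels). Pitpnm2 came next at 699 ± 37.8 and lay below C1ql2 in 10 of 12 libraries. Stxbp6 stood at 598 ± 37.6 and Prox1 at 557 ± 33, a pair whose order held in 9 of 12 libraries. Rfx3 followed at 456 ± 35.3, Lct at 232 ± 28.8 and Dsp at 176 ± 20, and each step between them held in 12 of 12 libraries. Pdzd2 at 131 ± 10.2 and Maml2 at 126 ± 12.6 did not differ beyond their spread, with Pdzd2 higher in 6 of 12 libraries. Tdo2 was lowest at 74.5 ± 10.9. These lengths count the exons of every annotated transcript, so a gene with long unused exons is placed too low.

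**Figure D1:**
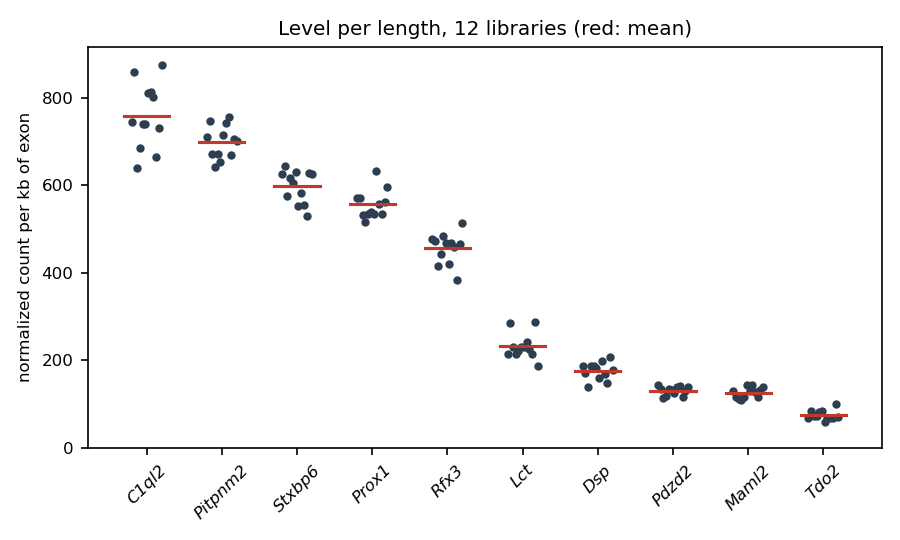
Normalized count per kilobase of exon of the 10 dentate granule cell genes, 1 point per library (12 libraries) and the mean as a red line. Means run from 759.5 for C1ql2 to 74.5 for Tdo2, and the points of Pdzd2 and Maml2 overlap.

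In the comparison of mutants with wild type averaged over both sexes, which asks whether genotype went with a different level of these genes, 0 of the 10 passed limma's threshold of an adjusted p of 0.05. Over all 17496 genes tested 1 gene passed, Chd8, or 0.00572%. At an unadjusted p under 0.05 the count was 1 of 10, against 8.87% of all genes tested, and with edgeR and DESeq2 on the recovered reads 0 of the 10 passed after adjustment. Log2 fold changes ran from -0.18 (Tdo2) to 0.10 (Pitpnm2). They were above 0 for 6 genes and below 0 for 4, with a median of 0.03, beside a median of -7.3e-05 and 49.9% above 0 over all genes tested. The 95% intervals of the 10 genes together spanned -23.6% to 21.8%. A p that misses the threshold does not show equal levels.

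Within the sexes the counts were also 0 of 10, beside 0% of all genes tested in males and 0% in females. At an unadjusted p under 0.05 there was 1 of 10 in males, against 10.3% of all genes, and 1 of 10 in females, against 6.9%. In both cases the gene was Pitpnm2. The test of whether the genotype effect differed by sex (males minus females) called 0 of 10, against 0% of all genes, and 0 of 10 had an unadjusted p under 0.05, against 7.85%. Its values ran from -0.16 (Dsp) to 0.19 (Tdo2) on the log2 scale, with limma adjusted p-values of 0.863 to 0.979.

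**Figure D2:**
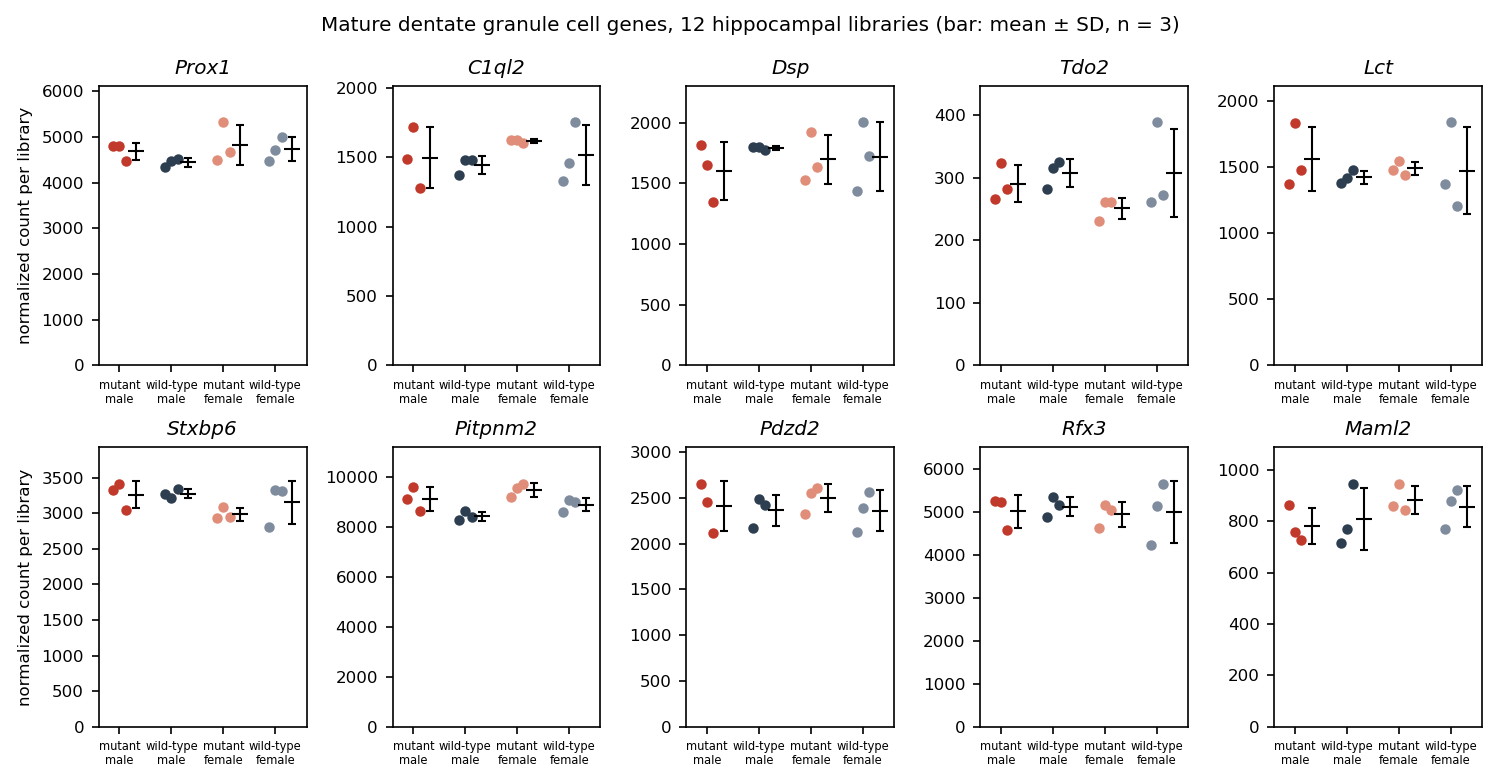
Normalized counts of the 10 genes in each library, with mutant males, wild-type males, mutant females and wild-type females from left to right, 3 points per group and the mean ± SD as a black bar; every vertical axis starts at 0. The groups overlap for 9 of the 10 genes within each sex, and Pitpnm2 is higher in the mutant libraries of each sex.

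**Figure D3:**
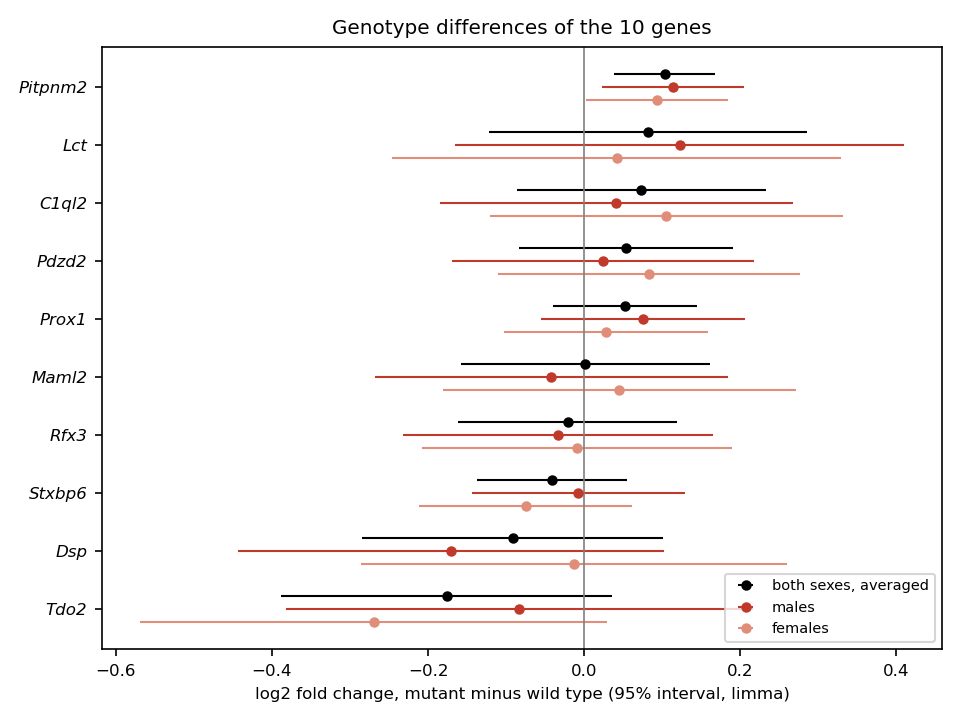
Log2 fold changes of the 10 genes, mutant minus wild type, averaged over both sexes (black), in males (red) and in females (salmon), with 95% intervals from limma. The intervals hold 0 for 9 genes, and those of Pitpnm2 lie above 0 before adjustment over 17496 genes (adjusted p = 0.359 for the average).

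Pitpnm2 was the member whose groups separated by genotype within each sex. It encodes a membrane-associated phosphatidylinositol transfer protein, a family that carries this lipid between membranes and so feeds its signalling. Its gene lies at chr5:124118690-124249760 on the minus strand (GRCm38). Normalized counts were 9119, 9614 and 8632 in mutant males, against 8259, 8623 and 8392 in wild-type males. They were 9181, 9539 and 9718 in mutant females, against 8597, 9058 and 9007 in wild-type females. The lowest mutant library lay above the highest wild-type library in each sex, by a small margin in males, but across the sexes mutant male 3 fell inside the wild-type range. Of all genes tested 0.532% lay higher in mutants without overlap in both sexes, 16% did not overlap in males in either direction and 10.8% did not in females. Across all 6 mutant and 6 wild-type libraries, 0.543% of genes did not overlap, and none of the 10 members was among them. Pitpnm2 averaged 9301 ± 406 in mutants and 8656 ± 322 in wild type (SD, n = 6 each). The averaged difference was 7.42% (95% interval 2.72 to 12.3%; log2 0.10 ± 0.03; limma adjusted p = 0.359). It was 8.19% in males (adjusted p = 0.44) and 6.66% in females (adjusted p = 0.708). The smallest adjusted p under any of the alternative settings was 0.121, with DESeq2. Depth and the oligodendrocyte markers moved with genotype in the same libraries, and their part in this difference was not tested.

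RefSeq lists a pair of start sites for Pitpnm2, and the deposited counts add up their transcripts, so the share of each start is not known here. The 250 bases before each start are shown because this was the member nearest to a genotype difference (build GRCm38.p6, minus strand, read in the direction of the gene). The window of the outer start, chr5:124249761-124250010, holds 44 CG pairs in 81.6% G and C. The window of the inner start, chr5:124187183-124187432, holds 11 CG pairs in 63.6% G and C, and capitals mark its 2 matches to GTTGCC on either strand, a half-site known to be bound by RFX factors.
Pitpnm2 outer start: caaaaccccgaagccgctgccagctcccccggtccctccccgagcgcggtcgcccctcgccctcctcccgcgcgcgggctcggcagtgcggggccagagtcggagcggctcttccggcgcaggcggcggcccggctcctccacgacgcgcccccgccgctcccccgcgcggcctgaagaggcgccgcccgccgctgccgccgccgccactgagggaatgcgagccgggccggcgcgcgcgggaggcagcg
Pitpnm2 inner start: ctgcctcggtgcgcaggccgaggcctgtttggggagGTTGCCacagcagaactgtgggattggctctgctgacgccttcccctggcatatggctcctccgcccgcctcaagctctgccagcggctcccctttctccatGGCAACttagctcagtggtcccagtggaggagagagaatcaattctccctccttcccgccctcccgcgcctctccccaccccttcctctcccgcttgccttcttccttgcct
GTTGCC was found in 10.4% of 32851 promoter windows of this length, and in 1 of the 13 windows of the 10 genes. A match is a description and shows no binding. Its relatives were measured from a list of 5. Pitpna stood at 0.03 ± 0.03 (log2 fold change ± SE, averaged over the sexes), Pitpnb at 0.05 ± 0.03, Pitpnm1 at 0.0065 ± 0.05, Pitpnm3 at -0.05 ± 0.09 and Pitpnc1 at -0.08 ± 0.03. In this family 0 of 5 passed (limma adjusted p of Pitpnc1 = 0.481, the smallest), with a median of 0.0065.

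Among the transcription regulators, Prox1 did not pass the threshold. The gene lies at chr1:190118035-190170714 on the minus strand, where the antisense gene Prox1os shares exon sequence with it. The kit does not keep strand, so their reads cannot be told apart there, but Prox1os had a mean of 130.1 normalized counts, against 4674 for Prox1. Prox1 had 4794, 4801 and 4471 normalized counts in mutant males, against 4332, 4482 and 4527 in wild-type males. In mutant females it had 4490.2, 5319.6 and 4680.3, against 4481, 4708 and 5001 in wild-type females. The groups overlapped in both sexes, and mutant female 2 was the highest of the 12 libraries. The averaged log2 fold change was 0.05 ± 0.04, or 3.66% (95% interval -2.77 to 10.5%; limma adjusted p = 0.765).

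The 250 bases before the outer RefSeq start of Prox1 and those before the start of Lct are set side by side as the CG-rich and CG-poor kinds of start within this list. The Prox1 window, chr1:190170828-190171077, has 20 CG pairs and the Lct window, chr1:128328319-128328568, has 1 (both on the minus strand, GRCm38.p6). The outer start of Prox1 lies beyond the gene span given above. Bases just after either RefSeq start of Prox1 were not found in its annotated transcripts (GENCODE M21). Where Prox1 transcripts start in these libraries is not known here. Capitals mark the single match to CAGATG on either strand, an E-box form bound by NeuroD factors. It was found in 14.4% of all windows and in 2 of the 13 of these genes, the other being at Maml2.
Prox1: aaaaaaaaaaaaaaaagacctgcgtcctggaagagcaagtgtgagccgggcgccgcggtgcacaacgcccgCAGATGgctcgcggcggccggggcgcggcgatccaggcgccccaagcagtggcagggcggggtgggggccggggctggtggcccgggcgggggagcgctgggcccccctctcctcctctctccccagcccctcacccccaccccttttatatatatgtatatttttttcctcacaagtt
Lct: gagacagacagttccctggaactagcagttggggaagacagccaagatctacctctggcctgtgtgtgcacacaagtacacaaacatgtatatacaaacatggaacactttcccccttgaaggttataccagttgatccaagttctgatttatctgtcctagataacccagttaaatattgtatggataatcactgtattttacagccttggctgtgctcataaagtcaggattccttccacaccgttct
The TCF/LEF motif, searched on either strand as CAAAG directly after any pair of A or T bases, was in 14.8% of all windows and in 1 of the 13 (Maml2). No match of one motif overlapped a match of another in these windows. For Tdo2 the window held 3 CG pairs and for Rfx3 it held 30, and over the 13 windows the number ranged from 1 to 44 CG pairs.

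Other transcription factors of the hippocampus, in a list of 10, had a median log2 fold change of 0.08, with 8 above 0 and 0 past the threshold. In males 9 lay above 0 (median 0.16) and in females 6 (median 0.03). They ran from Lef1, an effector of Wnt signalling, at -0.05 ± 0.10 to Nr2f2, an orphan nuclear receptor, at 0.30 ± 0.15 (limma adjusted p = 0.914 and 0.586).

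Rfx3, a winged-helix factor that switches on genes of cilia, lies at chr19:27761721-28011166 and is also known from ciliated ependyma. It had 5262, 5229 and 4577 normalized counts in mutant males, against 4891, 5353 and 5161 in wild-type males. The values were 4629, 5163 and 5058 in mutant females, against 4229.7, 5143 and 5662 in wild-type females. The groups overlapped, and wild-type females spanned both the lowest and the highest of the 12 libraries. The averaged log2 fold change was -0.02 ± 0.06, or -1.47% (95% interval -10.6 to 8.61%; limma adjusted p = 0.947). Markers of ependyma summed to 1068 to 2213 normalized counts in mutants and 1325 to 2476 in wild type, and 1 of the 10, Mia, was at 0 in at least 1 library. The lowest ependyma sum was in mutant male 2, where Rfx3 was lower than in 3 libraries and higher than in the other 8. The next lowest sums, in wild-type female 1 (1325), mutant male 3 (1679) and mutant female 1 (1736), fell in the libraries lowest in Rfx3. The highest sum (2476) fell in wild-type female 3, the library highest in Rfx3. Sum and level went apart in wild-type male 1, with a high sum (2403) and a low Rfx3 (4891). They also did in mutant male 1, with a lower sum (1970) and a higher Rfx3 (5262). Of 9 ependyma markers tested 9 lay lower in mutants averaged over the sexes (median log2 fold change -0.33) and 0 passed. The medians were -0.67 in males and 0.0052 in females. The part of ependyma in the Rfx3 values was not tested. Of 5 other RFX genes 1 lay above 0 and 4 below, with 0 past the threshold and a median of -0.02. They were Rfx1 at 0.01 ± 0.05, Rfx2 at -0.11 ± 0.14, Rfx4 at -0.01 ± 0.07, Rfx5 at -0.02 ± 0.06 and Rfx7 at -0.06 ± 0.04. Per kilobase of exon, Rfx3 at 456 was above the next, Rfx1, at 124.

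Maml2, a mastermind-like coactivator that works with the cut Notch receptor in the nucleus, lies at chr9:13297957-13709388. It had 863, 759 and 729 normalized counts in mutant males, against 715, 771 and 946 in wild-type males, and 859, 946 and 845 in mutant females, against 769.9, 879 and 924 in wild-type females. Its means were 834 ± 78.6 in mutants and 834 ± 94.8 in wild type (SD, n = 6 each), with a log2 fold change of 0.0015 ± 0.07 (limma adjusted p = 0.997). In the list of 12 Notch pathway genes 10 lay above 0 and 0 passed, with a median of 0.06. In males 7 lay above 0 (median 0.04) and in females 10 (median 0.12). Hes5, a target of Notch, was at 0.37 ± 0.15 (limma adjusted p = 0.491), and Hey2 was at the other end at -0.09 ± 0.14. Notch1, a receptor, stood at 0.13 ± 0.05 and Notch3 at 0.18 ± 0.07, and neither passed. At an unadjusted limma p under 0.05 the list held 3 of 12, against 8.87% of all genes tested. Fibroblast markers had a median log2 fold change of 0.13 in males (6 of 10 genes above 0) and 1.31 in females (10 of 10), with 0 past the threshold in either sex and sums of 8477 to 21611.5 in mutants and 5208 to 15209 in wild type, and their part in these values was not tested.

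Of the genes for synapse and membrane proteins, C1ql2 encodes a secreted C1q-like protein of mossy fibre terminals that binds neurexin and kainate receptors. It lies at chr1:120340582-120343174. Normalized counts were 1491, 1720.0 and 1281 in mutant males, against 1373, 1482 and 1482 in wild-type males. They were 1624, 1628 and 1604 in mutant females, against 1330.0, 1462 and 1752 in wild-type females. Mutant females were tightly grouped (1619 ± 12.7, SD, n = 3), while wild-type females (1515 ± 216, n = 3) lay on both sides of them. The averaged log2 fold change was 0.07 ± 0.07, or 5.21% (95% interval -5.82 to 17.5%; limma adjusted p = 0.809). In the list of 7 relatives and partners, 7 of 7 lay above 0 and 0 passed, with a median of 0.07. It was 7 of 7 in males (median 0.13) and 4 of 7 in females (median 0.01). C1ql3, a family member also found in granule cells, stood at 0.15 ± 0.05 (1007 ± 70.3 normalized counts in mutants and 904 ± 39.8 in wild type, n = 6 each; limma adjusted p = 0.407). C1ql1 stood at 0.08 ± 0.09, and the partner Nrxn3, a presynaptic adhesion receptor, at 0.03 ± 0.04. The kainate receptor subunits stood at 0.07 ± 0.03 for Grik2, 0.01 ± 0.07 for Grik4 and 0.07 ± 0.03 for Grik5, and Adgrb3, a receptor of C1q-like proteins, at 0.04 ± 0.04.

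Stxbp6, or amisyn, binds syntaxin in SNARE complexes and is known to restrain vesicle fusion. The gene lies at chr12:44852484-45074709. Its normalized counts were 3323, 3412 and 3047 in mutant males, against 3272, 3214 and 3339 in wild-type males. In mutant females they were 2926, 3085 and 2940.3, against 2807, 3331 and 3317 in wild-type females. The 3 mutant females lay between the lowest wild-type female and the other 2. The averaged log2 fold change was -0.04 ± 0.04, or -2.82% (95% interval -9.11 to 3.89%; limma adjusted p = 0.825). In a list of 8 SNARE genes and syntaxin binding proteins 4 lay above 0 and 4 below, with 0 past the threshold and a median of 0.0069, from Stx4a at -0.02 ± 0.04 to Stxbp5l at 0.07 ± 0.03.

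Pdzd2 encodes a large scaffold protein with several PDZ domains and lies at chr15:12359711-12739924. It had 2651, 2455 and 2117 normalized counts in mutant males, against 2174, 2491 and 2421 in wild-type males, and 2324, 2552 and 2611 in mutant females, against 2121, 2390.1 and 2567 in wild-type females. Mutant males held both the highest and the lowest of the 12 libraries, so the spread inside that group was as wide as the whole set. The averaged log2 fold change was 0.05 ± 0.06 (limma adjusted p = 0.841). Of 6 other genes for proteins with many PDZ domains 0 passed, with 3 on each side of 0, a median of 8.7e-04, and a range from Pdzd7 at -0.30 ± 0.11 to Grip1 at 0.09 ± 0.05.

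Tdo2 and Lct are the enzymes of the list. Tdo2 opens the ring of tryptophan, the entry step of the kynurenine pathway, and is best known from liver. Its gene lies at chr3:81957090-81976202. It was the member with the fewest reads and, with all 12 libraries, the largest averaged difference. Normalized counts were 266, 323 and 283 in mutant males, against 282, 315 and 326 in wild-type males. They were 231, 260.5 and 261 in mutant females, against 261, 389 and 273 in wild-type females. The groups overlapped in both sexes, in females only just, and wild-type female 2 stood far above the rest. Tdo2 averaged 271 ± 30.6 in mutants and 307 ± 47 in wild type (SD, n = 6 each). The averaged difference was -11.5% (95% interval -23.6 to 2.47%; log2 -0.18 ± 0.10; limma adjusted p = 0.628), with -5.59% in males and -17.1% in females. With wild-type female 2 left out, the average was -0.086 on the log2 scale, smaller in size than the 0.17 of Lct in the same fit. Of 11 other kynurenine pathway genes 5 (Ido1, Kmo, Kynu, Aadat and Acmsd) were under the minimum mean of 10 and were not tested. Of the 6 tested 3 lay above 0, 3 below and 0 passed, with a median of -0.0054, from Kyat1 at -0.04 ± 0.05 to Qprt at 0.11 ± 0.42. The Qprt average joins -0.62 in males and 0.85 in females (limma adjusted p = 0.775 and 0.839), at only 2.21 to 42.3 normalized counts. Per kilobase, Tdo2 at 74.5 stood above Ido2 at 18.2, the other tested gene for an enzyme of the same step.

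Lct encodes lactase, the intestinal enzyme that splits milk sugar, and its transcript is also a known mark of granule cells in mice. The gene lies at chr1:128284756-128328318. Its normalized counts were 1372, 1833 and 1481 in mutant males, against 1379, 1419 and 1476 in wild-type males. They were 1482, 1548 and 1445 in mutant females, against 1373, 1840.0 and 1203 in wild-type females. Mutant male 2 and wild-type female 2 stood well above the other 10, which lay at 1548 or less. Its averaged log2 fold change was 0.08 ± 0.09, or 5.83% (95% interval -8.07 to 21.8%; limma adjusted p = 0.838).

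Dsp encodes desmoplakin, which ties desmosomes to intermediate filaments in epithelia and heart and is also present in meninges. Its gene lies at chr13:38151294-38198577. Normalized counts were 1816, 1649.6 and 1343 in mutant males, against 1800.4, 1798 and 1771 in wild-type males. They were 1531, 1926 and 1637 in mutant females, against 1438, 2002 and 1723 in wild-type females. Mutant males were spread widely (1603 ± 239.9, SD, n = 3), while the 3 wild-type males lay close together (1790.1 ± 16.2). The averaged log2 fold change was -0.09 ± 0.09, or -6.16% (95% interval -17.9 to 7.28%; limma adjusted p = 0.805). In males alone it was -0.17 ± 0.13 (adjusted p = 0.684), and 0.02 when mutant males 2 and 3 and wild-type female 1, which were low in choroid plexus markers, were left out. This leaves mutant male 1 as the sole mutant male, and the fit assumes that it varies like the other groups. In a list of 6 other junction and plakin genes 4 lay above 0 and 0 passed, with a median of 0.0047. They ran from Ppl at -0.23 ± 0.15 to Perp at 0.06 ± 0.34. This average of Perp joins -0.91 in males and 1.03 in females (limma adjusted p = 0.547 and 0.728).

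Another 12 genes known from granule cells were measured. Their median log2 fold change was 0.02, with 7 above 0, 5 below and 0 past the threshold, from Trpc6, a cation channel, at -0.05 ± 0.05 to C1ql3 at 0.15 ± 0.05. Calb1, the calcium buffer that marks mature granule cells, had 3331 ± 232 normalized counts in mutants and 3110.1 ± 266 in wild type (SD, n = 6 each), at 0.10 ± 0.06 (limma adjusted p = 0.655). Markers of immature neurons lay above 0 in 9 of 10 genes with a median of 0.07 and 0 past the threshold in the averaged comparison, from Tac2 at -0.10 ± 0.12 to Draxin at 0.30 ± 0.08. By sex, 8 of 10 lay above 0 in males (median 0.16) and 5 of 10 in females (median 0.04). Draxin, an axon guidance protein, had 130.3 ± 13.3 normalized counts in mutants and 105 ± 8.22 in wild type (SD, n = 6 each; limma adjusted p = 0.34).

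Low values of several members fell in the same libraries. In wild-type female 1, 0 of the 10 genes lay above their own median over the 12 libraries, and in mutant male 3 there were 2, against 8 in mutant male 1, mutant male 2 and mutant female 2. For 4 genes, C1ql2, Dsp, Pdzd2 and Rfx3, mutant male 3 and wild-type female 1 were the lowest pair of all 12 libraries. Wild-type female 1 was among the lowest 3 for 9 of 10 genes and mutant male 3 for 6. Both are among the 3 libraries lowest in choroid plexus markers, but the third of these, mutant male 2, was among the highest 3 for 6 of the 10 genes. CA1 markers summed to 17628 in mutant male 3 and 18620.2 in wild-type female 1, and to 8352 to 17539 in the other 10. CA3 markers summed to 8062 and 7592 in these 2, and to 8057 to 9674 in the other 10. Astrocyte markers summed to 137573 in mutant male 3 and 148313 in wild-type female 1, both above the 122822 to 135051 of the other 10. Slc1a2 was the largest term of these sums. By mean log2 level, where each gene weighs the same, astrocyte markers stood at 12.5194 in mutant male 3 and 12.546 in wild-type female 1. Mutant females 1, 2 and 3 were higher, at 12.5525, 12.5569 and 12.5529. For CA1 by this measure, mutant female 1 (10.6074) lay above mutant male 3 (10.5967), and wild-type female 1 was at 10.6834. The 12 other granule cell genes summed to 31276 in mutant male 3 and 30009 in wild-type female 1, both below the 33031 to 34773 of the other 10. Ahcyl2 was the largest term of these sums. Not every gene of the list was low there: Smad3 was highest of the 12 libraries in wild-type female 1, at 2047. Neocortex markers summed to 4674 in mutant male 3 and 5539 in wild-type female 1, and to 4543 to 5184 in the other 10. What moved the members in these 2 libraries was not tested. With both left out, 0 of 10 genes passed in the averaged comparison, with Pitpnm2 at 0.11 (limma adjusted p = 0.171) and Tdo2 at -0.22 (adjusted p = 0.513).

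**Figure D4:**
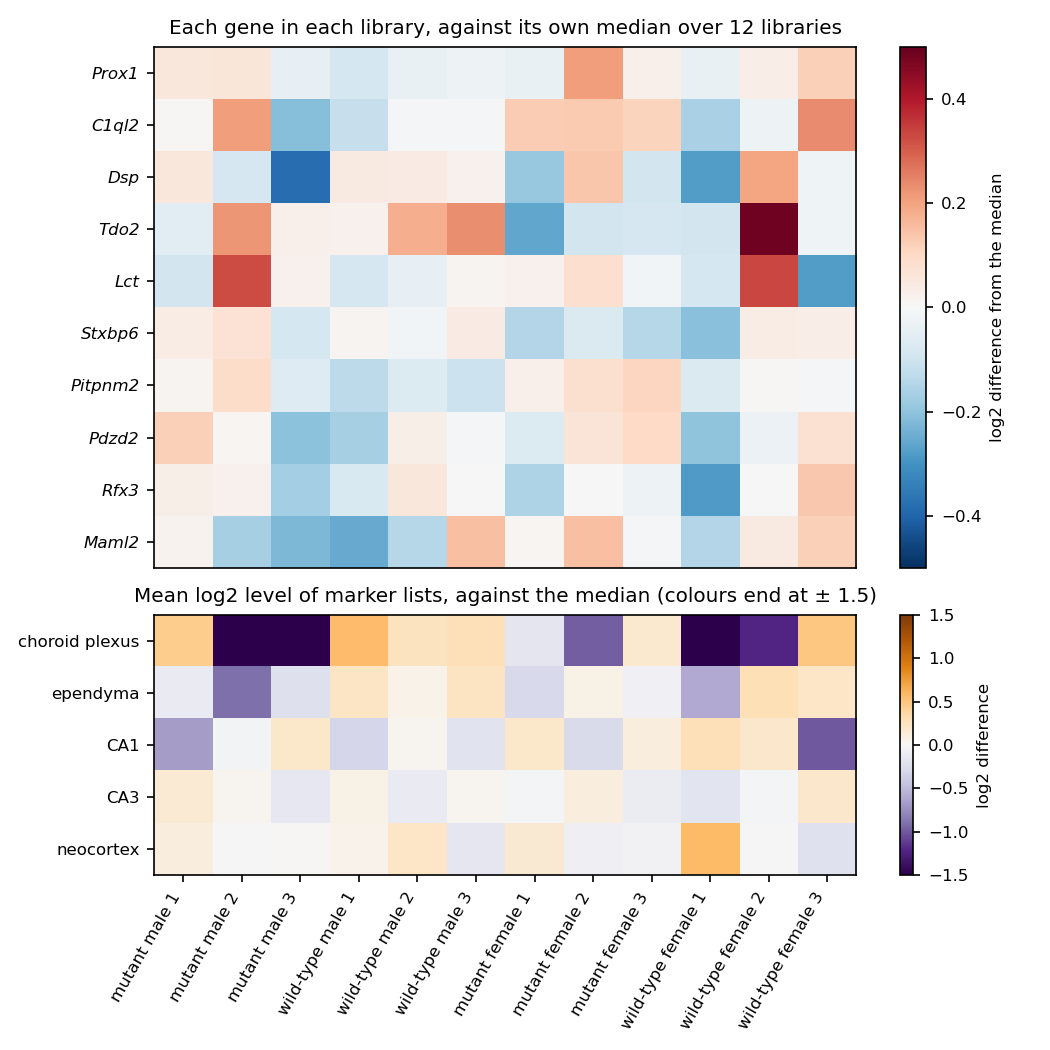
Upper panel, log2 difference of each of the 10 genes in each library from its own median over the 12 libraries; lower panel, the same for the mean log2 level of 5 marker lists. Mutant libraries stand left of wild-type libraries within each sex, and the columns of mutant male 3 and wild-type female 1 are mostly blue in the upper panel.

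The spread inside groups differed among the members. Pitpnm2 had a within-group SD of 0.05 on the log2 scale, smaller than in 85.9% of the genes tested, at a mean level above that of 97.5% of them. The SD was 0.08 for Prox1 and 0.09 for Stxbp6. Lct and Tdo2 had 0.19 each and Dsp 0.18. The median was 0.14 over the 10 genes and 0.11 over all genes tested. From the highest to the lowest library the level varied 1.18-fold for Pitpnm2 and 1.68-fold for Tdo2, the ends of the range in the list.

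Male minus female, averaged over the genotypes, called 0 of 10 members, beside 12 of 17496 genes (0.0686%). At an unadjusted p under 0.05 it was 1 of 10, against 6.64% of all genes. Log2 differences ran from -0.13 (Maml2) to 0.12 (Tdo2), with 4 above 0 and 6 below. Maml2 averaged 797 ± 89.4 normalized counts in males and 871 ± 62.7 in females (SD, n = 6 each; limma adjusted p = 0.812). Stxbp6 averaged 3267 ± 127 in males and 3068 ± 217 in females, at 0.09 ± 0.04 (adjusted p = 0.759). Pitpnm2 averaged 8773 ± 506 in males and 9183 ± 401 in females, at -0.07 ± 0.03 (limma adjusted p = 0.738). Males and females overlapped for all 10 genes, beside 0.469% of all genes tested without overlap.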

How the data were processed

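The 12 hippocampal RNA libraries were made with a TruSeq kit v2, per the labels' protocols; this kit does not keep strand. The authors deposited 1 signal table of 46078 gene IDs. Each value is a read count divided by 1 size factor per library, as the values show: whole reads were recovered for 100% of values within 1e-04 reads. Named in the submitters' processing notes, without roles, are TopHat2 2.1.0 and Trimmomatic 0.35, DESeq2, HTSeq and the build GRCm38; which annotation was counted is not known here. Symbols, exons and places came from GENCODE M21, which matched 45229 IDs, and promoter sequences from RefSeq.

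Genes with a mean of 10 or more (17496; 28582 were not tested) were fitted as log2(value + 1) with limma 3.58.1 (R 4.3.3), with a trended variance and 1 mean per group over all 12 libraries, and tested on 5 contrasts. P-values were two-sided and Benjamini-Hochberg adjusted over all genes tested. The log2(value + 1) scale understates changes of low genes. The fit was tested on simulated data. Alternatives were edgeR 4.0.16 and DESeq2 1.42.0 on recovered reads, other scalings, filters and pseudocounts, a replicate block, and left-out libraries. Deviations from the group means of libraries sharing a number had r from -0.58 to 0.29. Libraries with different numbers reached 0.59 (wild-type female 3 with mutant male 1). This check cannot exclude a pairing, and the main fit used none. The 10 genes were named by the given list, relatives by the lists' lowest and highest averaged fold change or by role. Members and lists were chosen with earlier results of these data known.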

Additional observations from a re-analysis of the deposited data

How the results depend on the processing

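Of the 10 members 0 were called in any of the 5 comparisons under any of the 22 alternatives (DESeq2 gave no adjusted p for C1ql2, Tdo2, Lct and Maml2 in males and for Tdo2 in females); their smallest adjusted p was 0.121 averaged over the sexes, 0.239 in males, 0.401 in females, 0.65 for the interaction and 0.524 for sex. One alternative, without mutant male 3 and wild-type female 1, was chosen after seeing the data. Pitpnm2 and Tdo2 kept their averaged direction in all 22, as did Prox1, C1ql2, Dsp, Stxbp6 and Pdzd2. Tdo2 stood at only -0.086 without wild-type female 2.

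Counts over all genes moved more. Averaged over the sexes, 1 gene was called; no filter, upper-quartile factors and the replicate block gave 0, DESeq2 75, leaving out the 3 libraries lowest in choroid plexus markers 82, leaving out mutant male 3 and wild-type female 1 gave 53, and leaving out 1 library 0 to 8 (8 without mutant male 3). In males the count of 0 became 35 with DESeq2, 12 without the 3 libraries, 1 without the pair and 0 to 1 without 1 library. In females 0 became 11 with DESeq2, 1 without the 3 and 0 to 1 without 1 library. For the interaction 0 became 3 with DESeq2, 2 without the 3 and 0 to 1 without 1 library. For sex 12 became 48 with DESeq2, 34 without the 3, 19 without the pair and 11 to 18 without 1 library. The replicate block gave 16 for sex and 0 for males, females and the interaction. Whether the replicate number marks a pairing is not known here.

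Signs turned in these log2 fold changes, 0 of them called, and the cause was not tested. Averaged over the sexes, Lct was -0.026 without the 3, Maml2 was -0.0036 with TMM, Maml2 was -1.6e-06 with upper-quartile factors, Maml2 was -0.0038 with edgeR, Maml2 was -0.0045 with DESeq2 and Maml2 was -0.011 without the pair. In males, Dsp was 0.021, Lct -0.054, Stxbp6 0.021, Rfx3 0.036 and Maml2 0.10 without the 3, Stxbp6 was 0.012 with upper-quartile factors and Stxbp6 was 0.040, Rfx3 0.032 and Maml2 0.0082 without the pair. In females, Prox1 was -0.010 and Maml2 -0.031 without the 3 and Prox1 was -0.010 and Maml2 -0.031 without the pair. For the interaction, C1ql2 was 0.029, Dsp 0.16, Lct -0.057, Pdzd2 0.16, Rfx3 0.16 and Maml2 0.13 without the 3, C1ql2 was 0.13, Dsp 0.088, Pdzd2 0.10, Rfx3 0.16 and Maml2 0.039 without the pair and Rfx3 was 0.019 with upper-quartile factors. For sex, Dsp was 0.025, Lct -0.092 and Pdzd2 0.0089 without the 3.

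Without 1 library, the values whose sign turned spanned 0. Averaged over the sexes they ran from -0.080 to 0.025 for Rfx3 and -0.041 to 0.060 for Maml2. In males they ran from -0.064 to 0.15 for C1ql2, -0.041 to 0.040 for Stxbp6, -0.049 to 0.11 for Pdzd2, -0.069 to 0.032 for Rfx3 and -0.13 to 0.074 for Maml2. In females they ran from -0.044 to 0.079 for Prox1, -0.14 to 0.10 for Dsp, -0.092 to 0.21 for Lct, -0.13 to 0.084 for Rfx3 and -0.031 to 0.10 for Maml2. For the interaction they ran from -0.0028 to 0.12 for Prox1, -0.17 to 0.043 for C1ql2, -0.092 to 0.21 for Lct, -0.018 to 0.060 for Pitpnm2, -0.13 to 0.030 for Pdzd2, -0.12 to 0.092 for Rfx3 and -0.17 to 0.029 for Maml2. For sex they ran from -0.070 to 0.052 for Dsp, -0.051 to 0.10 for Lct, -0.064 to 0.019 for Pdzd2 and -0.026 to 0.079 for Rfx3. With 3 libraries a group, the 95% intervals bound what differences could be seen.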
